A study of Rattus norvegicus with 9 samples.

Results

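Rats that breathed on their own in 100% oxygen were compared with rats that breathed on their own in 21% oxygen (room air), with lung expression measured on microarrays. The comparison was formed from the titles: 2 samples, lettered a and b, of spontaneous breathing with 100% oxygen, called the oxygen samples here, and 2 of spontaneous breathing with 21% oxygen, called the air samples. These are 4 of the 8 samples and 4 of the 9 arrays in the series. The remaining 4 samples came from mechanically ventilated rats, 2 with 21% and 2 with 100% oxygen, and 1 of the latter was hybridised to 2 arrays. All samples were total RNA of rat lung, so each value is an average over every cell type in the piece of tissue. Strain, age, sex, tidal volume and hours of exposure are not stated in the labels. No label says that letters a and b were separate animals, and the p-values therefore reflect sample-to-sample spread that could be technical alone.

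Of the 8799 probe sets (groups of short probes to 1 transcript), 59 were array controls, and all 8740 others were members of the comparison. Intensities had been scaled so that the 2% trimmed mean was 800.5 to 801.1 on every array. Between 18.36% and 19.94% of values per array were at or below 0, and the highest of 15 bacterial control probe sets with no added RNA read 94.9 to 140.2, a guide to the level below which a reading is not distinct from background. Lung markers were present: in the air samples the surfactant gene Sftpb read 23281 and 18873, the type 1 cell gene Ager 14892 and 12468, the airway gene Scgb1a1 10788 and 9769, and the endothelial gene Pecam1 6198 and 4696. Vwf, another endothelial marker, read -14 to 122 in the 4 samples and was not measured above background.

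Pure oxygen is a model of oxidant lung injury. Mitochondria and other sources give more superoxide and hydrogen peroxide when oxygen tension is high, and the endothelium and the thin alveolar epithelium are known as its early targets. Cells meet it with haem oxygenase, with thioredoxin and glutathione enzymes switched on by the factor Nrf2, and with chaperones switched on by heat shock factor 1, which refold oxidised proteins. Fluid is cleared from the airspace through the epithelial sodium channel and the sodium pump, and adhesion molecules and chemokines draw white cells from the blood.

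With 100% oxygen 370 probe sets rose and 509 fell among 5244 tested (limma on log2 intensities, Benjamini-Hochberg adjusted p under 0.05), which is 16.8% in all, 7.06% higher and 9.71% lower. By the brightest probe set of each gene, 207 of 3181 genes rose (6.51%) and 315 fell (9.9%), and the median log2 change over all tested genes was -0.05. The counts of the gene lists below stand beside these shares and were not tested against them. In all 879 called probe sets the air and oxygen samples did not overlap, but that also held for 3195 of all 5244 tested (60.9%), so a gap between the groups alone says little here. Genes for chaperones, haem oxygenase, Crem, Il6 and Ccl2 were among those that rose, along with muscle genes. Genes of endothelium, ion transport, laminin, smooth muscle and Cyp1a1 were among those that fell. Leaving out 1 spontaneous sample moved the number of called probe sets to 395 (without oxygen sample a), 364 (without oxygen sample b), 438 (without air sample a) or 560 (without air sample b).

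One label ran exactly with the groups. The descriptions of both air samples carry an empty lot line and those of both oxygen samples do not, so oxygen and whatever that line marks cannot be told apart within these 4 samples. The sample with 2 arrays, ventilated with 100% oxygen, has the line on only 1 of them: over the 509 probe sets that fell the median log2 difference between its arrays, without minus with the line, was -0.06, and over the 370 that rose it was -0.08, against -0.07 over all tested. With the line as a block, which only that sample and its group inform, 68 probe sets rose and 53 fell. That fit took the 9 arrays singly, so the 2 arrays of that sample counted as separate replicates. Of the 109 genes called and described here or in the closing section, all 109 kept their sign in that fit and 40 kept their call.

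Chaperones gave the broadest shift of the stress pathways. Of 20 tested genes for heat shock and cytosolic chaperones 9 rose and 0 fell, with a median log2 change of 0.71 against -0.05 over all genes. The mitochondrial folding chamber, Hspd1, and its lid, Hspe1, rose among 5 tested mitochondrial chaperones. Of 12 tested genes of the endoplasmic reticulum list only Ddit3, a stress factor rather than a chaperone, rose on its brightest probe set. In that compartment the main chaperone Hspa5 read 6893 and 6898 in air and 6556 and 7425 in oxygen, so its groups overlapped. Calr, another chaperone there, was not called on its brighter probe sets (-0.05 and 0.17). Its dimmest one read 2825 and 3036 in air and 5161 and 5102 in oxygen (0.80 ± 0.17, adjusted p = 0.02).

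Because many chaperone genes rose and none fell on its brightest probe set, promoters of some are shown. Cdc37 was not called on its brightest probe set, but a dimmer one fell. It read 1737 and 1691 in air and 915 and 924 in oxygen (-0.87 ± 0.17, adjusted p = 0.013). Heat shock factor 1 binds repeats of GAA and its reverse TTC, each followed by 2 free bases. A run of 3 such units, searched as GAANNTTCNNGAA or TTCNNGAANNTTC on either strand in the 250 bases before the gene start, is in 0.663% of 33469 rat promoters (RefSeq, GRCr8), and a run of 2 units, GAANNTTC or TTCNNGAA, which every run of 3 also contains, is in 13.5%. Among the 9 chaperone genes that rose and have a promoter in the table, 3 hold a run of 3 (Hsph1, Hspd1 and Hspe1) and 7 a run of 2. Among the 11 that were not called, 0 hold a run of 3 and 4 a run of 2. Another 5 tested members had no promoter entry. The 4 stretches below are each 60 bases, on the gene's own strand, with the units in capitals:
Hsph1: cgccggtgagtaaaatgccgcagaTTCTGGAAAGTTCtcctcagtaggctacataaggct
Hspe1: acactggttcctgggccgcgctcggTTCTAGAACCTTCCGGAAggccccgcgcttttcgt
Dnajb1: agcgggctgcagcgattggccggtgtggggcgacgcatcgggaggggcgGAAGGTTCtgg
Stip1: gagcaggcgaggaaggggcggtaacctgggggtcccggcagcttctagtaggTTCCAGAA
They lie at chr12:10427308-10427367 (plus strand), chr9:64084237-64084296 (plus), chr19:41431142-41431201 (minus) and chr1:213657655-213657714 (minus), in that order. The capitals start 36, 65, 11 and 8 bases before the gene start. In Hspe1 the capitals are 2 overlapping runs of 3 units, and the same element, chr9:64084262-64084279, also lies 225 to 242 bases before the start of Hspd1, which is read the other way from a start 290 bases off. A match is a description of the letters and not evidence of binding.

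The genes behind these promoters separated clearly by group. Stip1, which hands clients from Hsp70 to Hsp90, read 1626 and 1649 in air and 3517 and 3625 in oxygen, a log2 change of 1.11 ± 0.11 (SE, adjusted p = 0.00071). Dnajb1, the co-chaperone that starts the Hsp70 cycle, read 2403 and 2497 in air and 4288 and 4921 in oxygen (0.90 ± 0.12, adjusted p = 0.0031). Both oxygen samples lay above both air samples for each gene, with a gap wider than the spread within a group.

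Hsph1, the Hsp110 exchange factor, read 6419 and 6028 in air and 9739 and 12791 in oxygen (0.84 ± 0.15, adjusted p = 0.010). Hspe1 read 5403 and 5866 against 9659 and 12929 (0.98 ± 0.15, adjusted p = 0.0053), and its neighbour Hspd1 read 4180 and 4400 against 7629 and 8873 (0.93 ± 0.12, adjusted p = 0.0027). In all 3 genes oxygen sample b was the highest of the 4 and the air samples lay close together. Fkbp4, an immunophilin of the Hsp90 complex, read 2280 and 1781 in air and 5111 and 4454 in oxygen (1.23 ± 0.14, adjusted p = 0.0017). Chordc1, a further Hsp90 partner, rose by 1.12 ± 0.15, St13, a partner of Hsp70, by 0.96 ± 0.11, Cryab, a small heat shock protein, by 0.96 ± 0.12 and Dnaja1, an Hsp40, by 0.93 ± 0.18. The inducible Hsp70 gene Hspa1a was already bright in air, at 6936 and 6995, and read 8920 and 12655 in oxygen (0.61 ± 0.16, adjusted p = 0.039).

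The abundant Hsp90ab1 read 20266 and 17112 in air and 12192 and 17467 in oxygen, with overlapping groups. Hspb1, the small heat shock protein Hsp27, cannot be given a direction: its brightest probe set read 22723 and 19425 in air and 14109 and 19386 in oxygen (-0.34 ± 0.19, adjusted p = 0.25), a dimmer one read 1402 and 1116 against 2409 and 2844 (1.04 ± 0.18, adjusted p = 0.008), and another went down (-0.76 ± 0.22, adjusted p = 0.048). Oxygen sample a had lower values at the bright end of the scale, with a 99th percentile of 9934 against 12682 to 14547 for the other 3, and the part of this in the readings of the brightest genes was not tested. Calls ended when single samples were left out for Hspa1a (any sample of the series except oxygen sample a, adjusted p up to 0.12), Dnaja1 (oxygen b or air b, up to 0.059) and Ddit3 (oxygen a, oxygen b or air a, up to 0.073). Under the lot line block Stip1, Fkbp4, Chordc1, St13 and Cryab kept their calls (adjusted p = 0.011 to 0.048) and 7 of the 12 called genes did not (0.051 to 0.54).

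Haem oxygenase rose, and most tested Nrf2 targets did not pass the test. Hmox1, the inducible enzyme that breaks haem into iron, carbon monoxide and biliverdin, read 1332 and 1517 in air and 4392 and 3554 in oxygen, a 2.73-fold difference (log2 change 1.45 ± 0.14, adjusted p = 0.00077). Both oxygen samples lay far above both air samples. The targets of Nrf2, a list that does not hold Hmox1, had a median of -0.06. Of 20 tested 1 rose and 0 fell, beside 6.51% and 9.9% over all tested genes. That gene was Prdx1, a peroxidase that uses thioredoxin, which read 4704 and 5207 in air and 6490 and 6316 in oxygen (0.37 ± 0.11, adjusted p = 0.049). Txnrd1, thioredoxin reductase, read 2151 and 2487 in air and 3742 and 3419 in oxygen (0.62 ± 0.20, adjusted p = 0.068), short of the threshold. Gclm, which regulates glutathione synthesis, read 475 and 673 in air and 686 and 763 in oxygen (0.33 ± 0.18, adjusted p = 0.24), also not called. Neither gene had overlapping groups, which held for 60.9% of all tested probe sets.

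Enzymes that make or remove superoxide and peroxide had called members in both directions, 2 up and 3 down of 17 tested. Over all tested genes 6.51% rose and 9.9% fell. Xdh, xanthine dehydrogenase, whose oxidase form produces superoxide, read 6158 and 7918 in air and 2631 and 2307 in oxygen (-1.49 ± 0.14, adjusted p = 0.00067). The extracellular dismutase Sod3 fell by 0.58 ± 0.11 and catalase, Cat, by 0.65 ± 0.14, while the mitochondrial peroxidase Prdx3 rose by 0.69 ± 0.18. Sod2, the mitochondrial dismutase, read 1225 and 1338 in air and 1273 and 1190 in oxygen, with overlap. In haem and iron handling 3 of 13 tested genes rose (Hmox1, Alas2 and Hp) and 1 fell. Alas2, the first enzyme of haem synthesis in red cell precursors, rose by 0.72 ± 0.13, Hp, the plasma protein that binds free haemoglobin, by 0.63 ± 0.15, and Aco1, the iron-sensing aconitase, fell by 0.91 ± 0.15.

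Cytochrome P450 genes mostly went down where they were called, 6 of 21 against 1 that rose, beside 9.9% and 6.51% over all tested genes. Cyp1a1, the enzyme that the aryl hydrocarbon receptor switches on, had the largest fall, from 695 and 596 in air to 144 and 117 in oxygen (-2.01 ± 0.20, adjusted p = 0.00081). Its oxygen readings lie at the level of the bacterial controls, and log2 values with an offset understate such a fall. Cyp2e1 read 2935 and 2737 in air and 1433 and 1409 in oxygen (-0.98 ± 0.12, adjusted p = 0.0019), again with no overlap. Leaving out single samples ended the calls of Prdx1 (any of the 8 samples, adjusted p up to 0.2), Prdx3 (any spontaneous sample or either ventilated 100% sample, up to 0.16), Sod3 (oxygen b or air b, up to 0.072), Cat (oxygen a, oxygen b or air b, up to 0.088), Alas2 (air a, 0.053) and Hp (oxygen b or air a, up to 0.12). In the lot line fit Hmox1, Xdh, Cyp1a1 and Cyp2e1 kept their calls (adjusted p = 0.015 to 0.036) and 7 of the 11 called genes did not (0.11 to 0.33).

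Immediate early genes, which cells switch on within minutes of a stimulus, split: 5 of 29 tested rose and 4 fell, with a median of 0.29. The shares over all tested genes were 6.51% and 9.9%. Crem, a member of the cyclic AMP response factor family, changed most. It read 302 and 319 in air and 1600 and 1498 in oxygen, a 4.53-fold difference (2.18 ± 0.12, adjusted p = 8.3e-05). The stress factor Atf3 read 487 and 566 in air and 1175 and 1192 in oxygen (1.11 ± 0.16, adjusted p = 0.0044). Air samples were tightly grouped and low for both genes. Junb, Egr1 and Fos, which are the usual first responders, rose by less, by 0.88 ± 0.17, 0.63 ± 0.12 and 0.57 ± 0.12 (adjusted p = 0.015 to 0.02). Egr1 had 3 dimmer probe sets, none called, with changes of 0.35, 0.01 and -1.32, so its rise rests on the brightest one. A further probe set of Junb was not called either (0.36 ± 0.19).

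The 4 that fell included Klf4, a factor of quiescent endothelium and epithelium, which read 2148 and 2079 in air and 687 and 589 in oxygen (-1.67 ± 0.13, adjusted p = 0.00031). That is a 3.18-fold lower level, with both oxygen samples far below both air samples. Klf10, induced by transforming growth factor beta, fell by 0.82 ± 0.13, Sgk1, a kinase switched on by glucocorticoids that keeps sodium channels at the surface, by 0.86 ± 0.14, and Hes1, a Notch target, by 0.71 ± 0.12. Calls ended without 1 sample for Junb (oxygen a or air a), Egr1 (oxygen a, oxygen b or air a), Fos (oxygen a, oxygen b or air b) and Hes1 (oxygen b). When the lot line was a block, Crem, Atf3 and Klf4 kept their calls (adjusted p = 0.0019 to 0.035) and 6 of 9 did not (0.07 to 0.14).

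**Figure D1:**
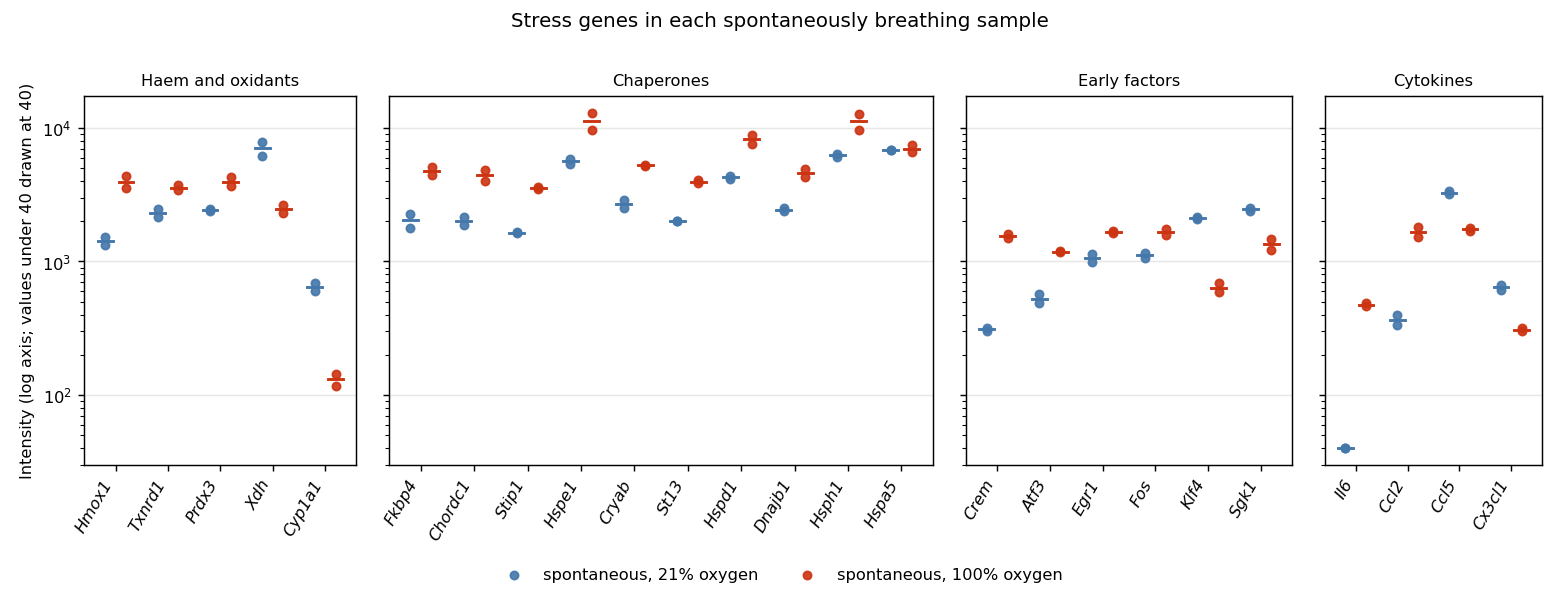
Intensity (log axis) of stress genes in the 2 air samples (blue) and the 2 oxygen samples (red); each point is a sample and each bar the group mean. Chaperones other than Hspa5 separate upward, Crem, Il6 and Ccl2 show the widest upward gaps, and Xdh, Cyp1a1, Klf4 and Cx3cl1 separate downward.

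Among cytokines and chemokines 4 of 23 tested rose and 5 fell, beside 6.51% and 9.9% over all tested genes. Il6, the acute-phase cytokine, was listed below 0 in air, at -18 and -54, and read 485 and 461 in oxygen (log2 change with the offset of 40 3.68 ± 0.20, adjusted p = 7.5e-05). No fold is given against a group listed below 0. Its promoter holds a cyclic AMP response element, TGACGTCA, the kind of site bound by the family to which Crem belongs. Such a match is not evidence of binding, and a link between Crem and Il6 was not tested. The element is in 1.59% of the 33469 promoters and lies 162 to 155 bases before the Il6 start, shown in capitals in the 60 bases at chr4:5894706-5894765 (minus strand, GRCr8):
Il6: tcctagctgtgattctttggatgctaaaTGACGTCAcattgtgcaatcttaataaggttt
Ccl2, the monocyte attractant, read 334 and 396 in air and 1514 and 1810 in oxygen, a 4.20-fold difference (2.07 ± 0.16, adjusted p = 0.00026). Il1b, an inflammatory cytokine of macrophages, read 1581 and 1794 in air and 2395 and 3413 in oxygen (0.75 ± 0.20, adjusted p = 0.036). Ccl20, which attracts dendritic cells, rose by 0.79 ± 0.19. In these 4 genes no oxygen sample fell within the air range, which held for every called probe set and for 60.9% of all tested.

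Other attractants and adhesion genes went down. Ccl5, a T cell attractant, read 3351 and 3203 in air and 1793 and 1695 in oxygen (-0.90 ± 0.15, adjusted p = 0.0086). Cx3cl1, the membrane-bound attractant of endothelium, read 616 and 662 in air and 315 and 303 in oxygen (-0.96 ± 0.15, adjusted p = 0.0064). Each gene gave tight pairs on both sides. Cxcl6 fell by 0.88 ± 0.18, Mif by 0.75 ± 0.14 and Tgfb1 by 0.97 ± 0.24.

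Of 7 tested adhesion and feedback genes 3 fell and 0 rose, beside 9.9% and 6.51% over all tested genes. Icam1, which holds neutrophils to the vessel wall, read 3680 and 3544 in air and 2081 and 2136 in oxygen (-0.77 ± 0.11, adjusted p = 0.004). Nfkbia, the inhibitor that NF-kB itself induces, read 3470 and 3566 in air and 1980 and 1799 in oxygen (-0.88 ± 0.12, adjusted p = 0.0036). Neutrophil genes did not shift as a list (1 up and 1 down of 10 tested): S100a8 read 7835 and 7890 in air and 9156 and 9333 in oxygen, and S100a9 11019 and 9365 against 8504 and 10304. Calls ended without 1 sample for Il1b (air a, air b, oxygen b or either ventilated 100% sample, adjusted p up to 0.17), Ccl20 (oxygen a, oxygen b or air a, up to 0.12), Ccl5 (oxygen b, 0.055), Cxcl6 (oxygen a or air a, up to 0.076), Mif (the same, up to 0.064) and Tgfb1 (oxygen a, oxygen b or air b, up to 0.15). Il6, Ccl2, Ccl5 and Nfkbia kept their calls with the lot line as a block (0.0019 to 0.049) and 7 of 11 did not (0.084 to 0.22).

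Endothelial genes had the largest share of falls among the lung cell lists tested. Of 15 tested 8 fell and 0 rose, and 14 were below 0, with a median log2 change of -0.55 against -0.05 over all genes. Car4, the carbonic anhydrase on the surface of lung capillary cells, read 2645 and 2639 in air and 858 and 834 in oxygen, a 3.03-fold lower level (-1.60 ± 0.12, adjusted p = 0.00026). Ace, the angiotensin-converting enzyme of the capillary wall, read 5512 and 5215 in air and 2126 and 2470 in oxygen (-1.21 ± 0.12, adjusted p = 0.00067). For both genes the 4 samples formed 2 tight and distant pairs.

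Kdr, the main receptor for vascular endothelial growth factor, read 509 and 668 in air and 175 and 243 in oxygen (-1.34 ± 0.21, adjusted p = 0.0066). The junction protein Pecam1 read 6198 and 4696 in air and 3069 and 2944 in oxygen (-0.84 ± 0.18, adjusted p = 0.019). Icam2, constitutive on endothelium, fell by 1.20 ± 0.23, the adrenomedullin receptor Calcrl by 1.03 ± 0.23, the receptor kinase Acvrl1 by 0.75 ± 0.16 and the vasoconstrictor Edn1 by 0.51 ± 0.13. In whole lung RNA, fewer endothelial cells and less of these RNAs per cell cannot be told apart. Calls ended without 1 sample for Icam2 (oxygen a or air b, adjusted p up to 0.071), Pecam1 (oxygen a, oxygen b or air a, up to 0.086), Acvrl1 (oxygen a, oxygen b or air b, up to 0.094), Calcrl (oxygen b or air a, up to 0.12) and Edn1 (any spontaneous sample or either ventilated 21% sample, up to 0.16). Ace and Car4 kept their calls with the lot line as a block (0.018 and 0.019) and 6 of 8 did not (0.078 to 0.29).

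In the alveolar epithelium subunits of the sodium channel fell, and the sodium pump subunit named below was not called. Of 15 tested genes for alveolar fluid transport 4 fell and 0 rose, beside 9.9% and 6.51% over all tested genes. Scnn1a, the alpha subunit of the epithelial sodium channel through which airspace fluid is absorbed, read 3919 and 4215 in air and 1695 and 1493 in oxygen (-1.33 ± 0.12, adjusted p = 0.00049). Scnn1g, its gamma subunit, read 583 and 628 in air and 176 and 115 in oxygen (-1.82 ± 0.21, adjusted p = 0.0015). Slc12a2, the sodium, potassium and chloride cotransporter, read 1165 and 1229 against 636 and 520 (-1.01 ± 0.15, adjusted p = 0.0054). Oxygen samples were well below air samples for all 3, though a further probe set of Slc12a2 was not called (-0.45 ± 0.32).

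Slc4a2, the anion exchanger, fell by 0.74 ± 0.14 on its brighter probe set and by 3.63 ± 0.44 on its dimmer one, which was below 0 in both oxygen samples. Atp1b1, a subunit of the sodium pump, read 8208 and 9260 in air and 8329 and 8847 in oxygen, inside the air range. Muc1, a mucin of the type 2 cell surface, was the 1 of 7 type 2 cell genes that fell (2955 and 3499 in air, 1646 and 1424 in oxygen, -1.05 ± 0.14, adjusted p = 0.0031). All 7 lay below 0, with a median of -0.54.

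Of the surfactant genes, none was called on its brightest probe set. Sftpc read 14817 and 10627 in air and 6020 and 9660 in oxygen (-0.71 ± 0.24, adjusted p = 0.081), Sftpb 23281 and 18873 against 11558 and 17928 (adjusted p = 0.17), and Sftpa1 17694 and 13789 against 11178 and 12464 (adjusted p = 0.086). A further probe set of Sftpa1, nearly as bright, was called: it read 16934 and 14255 in air and 10697 and 11196 in oxygen (-0.50 ± 0.12, adjusted p = 0.031). Oxygen sample a gave the lowest reading of the 4 for each, and it is the array with the lowest 99th percentile; the part of that in these readings was not tested. Scgb1a1, the club cell protein, read 10788 and 9769 in air and 7601 and 8207 in oxygen (-0.38 ± 0.11, adjusted p = 0.055). Ager, the type 1 cell receptor, fell by 0.57 ± 0.15 (adjusted p = 0.041), a call that ended without any 1 of the 8 samples (up to 0.18). The other type 1 cell markers were not called. Pdpn read 5453 and 5724 in air and 5338 and 6134 in oxygen (0.03, adjusted p = 0.89), and Aqp5 1152 and 1363 against 989 and 1004 (-0.32, adjusted p = 0.14). Slc4a2 lost its call without oxygen a, oxygen b or air b (up to 0.069), and with the lot line as a block only Scnn1a and Scnn1g of the 6 called genes kept theirs (0.01 and 0.039, against 0.059 to 0.11 for the other 4).

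**Figure D2:**
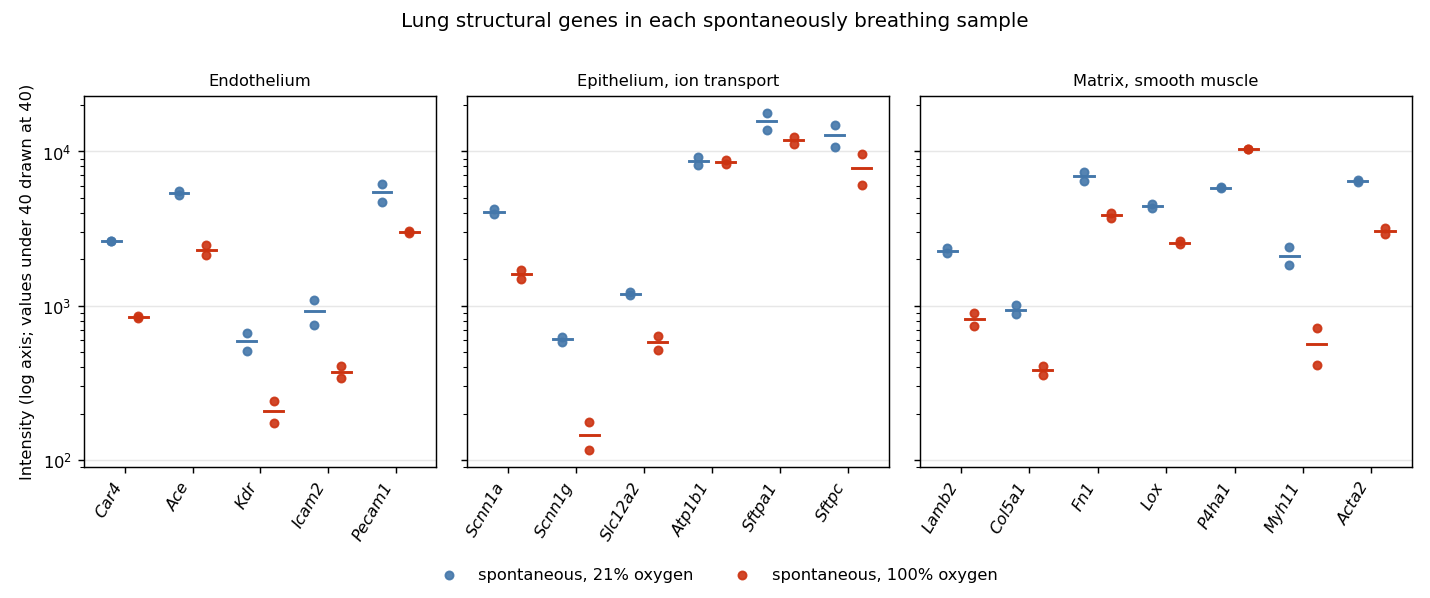
Intensity (log axis) of endothelial, epithelial, matrix and smooth muscle genes in the 2 air samples (blue) and 2 oxygen samples (red); points are samples and bars group means. Car4, Ace, Scnn1a and Lamb2 form tight separate pairs, Atp1b1 overlaps, and P4ha1 is the gene that separates upward.

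Matrix genes, with a median of -0.22, fell in 9 of 40 tested and rose in 2, beside 9.9% and 6.51% over all tested genes. Lamb2, a laminin chain of basement membranes, read 2207 and 2350 in air and 892 and 736 in oxygen (-1.45 ± 0.14, adjusted p = 0.00067). Col5a1, the collagen that starts fibrils, read 880 and 1007 in air and 357 and 405 in oxygen (-1.22 ± 0.16, adjusted p = 0.0026). Fn1, fibronectin, read 6410 and 7379 against 4020 and 3701 (-0.83 ± 0.12, adjusted p = 0.0046). In all 3 the higher oxygen sample stayed below the lower air sample. A further probe set of Lamb2 was not called (-0.60 ± 0.39).

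Lox, which cross-links collagen and elastin, fell by 0.78 ± 0.11 on its brightest probe set, and its other 3 probe sets, all lower on average, were not called. Mmp2, a gelatinase, fell by 0.70 ± 0.14, with a further probe set not called (-0.17 ± 0.15), and Eln, elastin, by 0.49 ± 0.10. The 2 that rose were P4ha1, the prolyl hydroxylase that stabilises collagen (5853 and 5761 in air, 10383 and 10300 in oxygen, 0.83 ± 0.10, adjusted p = 0.0021), and Mmp8, the collagenase stored in neutrophils (649 and 600 in air, 1416 and 1205 in oxygen, 1.02 ± 0.17, adjusted p = 0.008).

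Smooth muscle genes fell in 3 of 11 tested, and the median of the list was 0.06, so the list did not go down as a whole. Myh11, the smooth muscle myosin, read 2385 and 1824 in air and 717 and 410 in oxygen (-1.86 ± 0.25, adjusted p = 0.0032). Acta2, smooth muscle actin, read 6576 and 6362 in air and 2911 and 3167 in oxygen (-1.08 ± 0.11, adjusted p = 0.00078). Of the other 2 probe sets of Acta2, 1 fell (-0.87 ± 0.16) and 1 was not called (-0.13 ± 0.12). Cnn1, calponin, fell by 0.64 ± 0.14. Calls ended without 1 sample for Mmp2 (oxygen a, oxygen b or air a, adjusted p up to 0.076), Eln (oxygen b, air a or air b, up to 0.068), Mmp8 (oxygen a, 0.054) and Cnn1 (any spontaneous sample, up to 0.089). With the lot line as a block Lamb2, P4ha1 and Acta2 kept their calls (0.018 to 0.039) and 8 of 11 did not (0.054 to 0.17).

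Genes of the respiratory chain rose in 9 of 31 tested and fell in 0, with a median of 0.32. Cox7b, a subunit of cytochrome oxidase, read 1317 and 1623 in air and 3675 and 4053 in oxygen (1.38 ± 0.14, adjusted p = 0.00076). Uqcrfs1, the Rieske protein of complex III, rose by 0.71 ± 0.13, Cox5b by 0.73 ± 0.15 and Ndufa5, of complex I, by 0.50 ± 0.11. Further probe sets of Uqcrfs1 (0.21 ± 0.12) and Cox5b (0.13 ± 0.12) were not called. Among the 9 were also Cox8b (367 and 442 in air, 1178 and 1274 in oxygen, 1.51 ± 0.15) and Cox6a2 (933 and 921 in air, 2337 and 2164 in oxygen, 1.24 ± 0.15), which are the forms of their subunits made in heart and skeletal muscle and are also on the skeletal muscle list. Muscle genes moved with this list, as given next, and their part in the rise of the list was not tested.

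Of 23 tested hypoxia-inducible genes 4 fell and 1 rose, beside 9.9% and 6.51% over all tested genes. Slc2a1, the glucose transporter, read 760 and 859 in air and 502 and 475 in oxygen (-0.68 ± 0.17, adjusted p = 0.029), with a further probe set not called (-0.23 ± 0.39). Vegfa read 2312 and 2255 in air and 2820 and 2333 in oxygen (adjusted p = 0.47), and the glycolytic gene Pgk1 6098 and 5494 against 7823 and 7472 (0.40 ± 0.13, adjusted p = 0.074). The 3 genes had no common direction. Calls ended without 1 sample for Cox5b (oxygen b or air a), Uqcrfs1 (oxygen a or air a), Ndufa5 (oxygen a, oxygen b or air a) and Slc2a1 (any spontaneous sample). With the lot line as a block Cox7b and Cox8b kept theirs (adjusted p = 0.017 and 0.016) and the other respiratory chain genes named did not (0.065 to 0.25), nor did Slc2a1 (0.16).

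Some genes known from tissues other than lung differed between the groups. Of 27 tested skeletal muscle genes 13 rose and 0 fell, and the summed intensity of the 37 on the array was 14205 and 13883 in the air samples and 41971 and 41109 in the oxygen samples. Tnnc2, fast troponin C, read 330 and 415 in air and 3674 and 4065 in oxygen (3.25 ± 0.23, adjusted p = 0.00025). Tnni2, fast troponin I, read 78 and 116 against 1397 and 1490 (3.45 ± 0.26, adjusted p = 0.00026). Both oxygen samples carried these transcripts at like levels, and the air readings of Tnni2 lie at the level of the bacterial controls, so the size of its change depends on the offset. Ckm, muscle creatine kinase, rose by 2.33 ± 0.16 and Acta1, skeletal actin, by 1.89 ± 0.13. Tcap, a cap protein of the sarcomere, read 16 and 10 in air, below the bacterial controls, and 1037 and 541 in oxygen. Myog and Myod1, the factors of muscle precursors, were below 0 in all 4 samples.

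Heart muscle genes rose in 7 of 17 tested and fell in 1, their sum going from 20185 and 20289 to 36683 and 35359. Myl3, a light chain of ventricle and slow skeletal fibres, rose by 2.84 ± 0.27, Myl7, the atrial light chain, by 1.12 ± 0.12 (3811 and 3840 in air, 8314 and 8410 in oxygen), whereas Myh6, the atrial and ventricular heavy chain, read 300 and 355 in air and 393 and 426 in oxygen (adjusted p = 0.44). Krt4, a keratin of squamous epithelium such as the oesophagus, read 1140 and 1214 in air and 6289 and 6826 in oxygen (2.44 ± 0.18, adjusted p = 0.00026). It was the 1 called gene of 5 tested on its list, and Krt5 read 5 and 55 against 111 and 93.

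Of 13 tested fat genes 5 rose and 2 fell, beside 6.51% and 9.9% over all tested genes. Ucp1, the uncoupling protein of brown fat, read 248 and 271 in air and 1098 and 1087 in oxygen (1.92 ± 0.15, adjusted p = 0.00026), and Fabp4, a fatty acid carrier of fat cells, rose by 1.27 ± 0.22. Lipe, the hormone-sensitive lipase, went the other way (1743 and 2186 in air, 536 and 315 in oxygen, -2.14 ± 0.25, adjusted p = 0.0016), and Plin1 was below 0 throughout. Liver genes rose in 5 of 16 tested: Ttr, transthyretin, read 59 and 112 in air and 900 and 686 in oxygen (2.75 ± 0.24, adjusted p = 0.00049, with air readings at the level of the bacterial controls), and Alb, albumin, 125 and 188 against 683 and 763 (1.97 ± 0.24), with another of its tested probe sets rising and 1 at -0.14. Cd3g, of the T cell receptor, fell by 0.57 ± 0.16 (adjusted p = 0.048), a call that ended without any sample of the series except air sample b (up to 0.2). The T cell markers Lck (0.15, adjusted p = 0.7) and Thy1 (-0.15, adjusted p = 0.69) were not called. Of 14 tested T and natural killer cell genes 3 fell and 0 rose.

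Whether these transcripts came from another tissue was not tested, nor was their part in the other gene groups; the squamous list rests on Krt4 alone, and the fat list moved both ways. Fabp4 lost its call without oxygen a (0.057). With the lot line as a block 11 of 14 kept their calls (0.0082 to 0.033), and Tcap, Fabp4 and Cd3g did not (0.082 to 0.3).

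**Figure D3:**
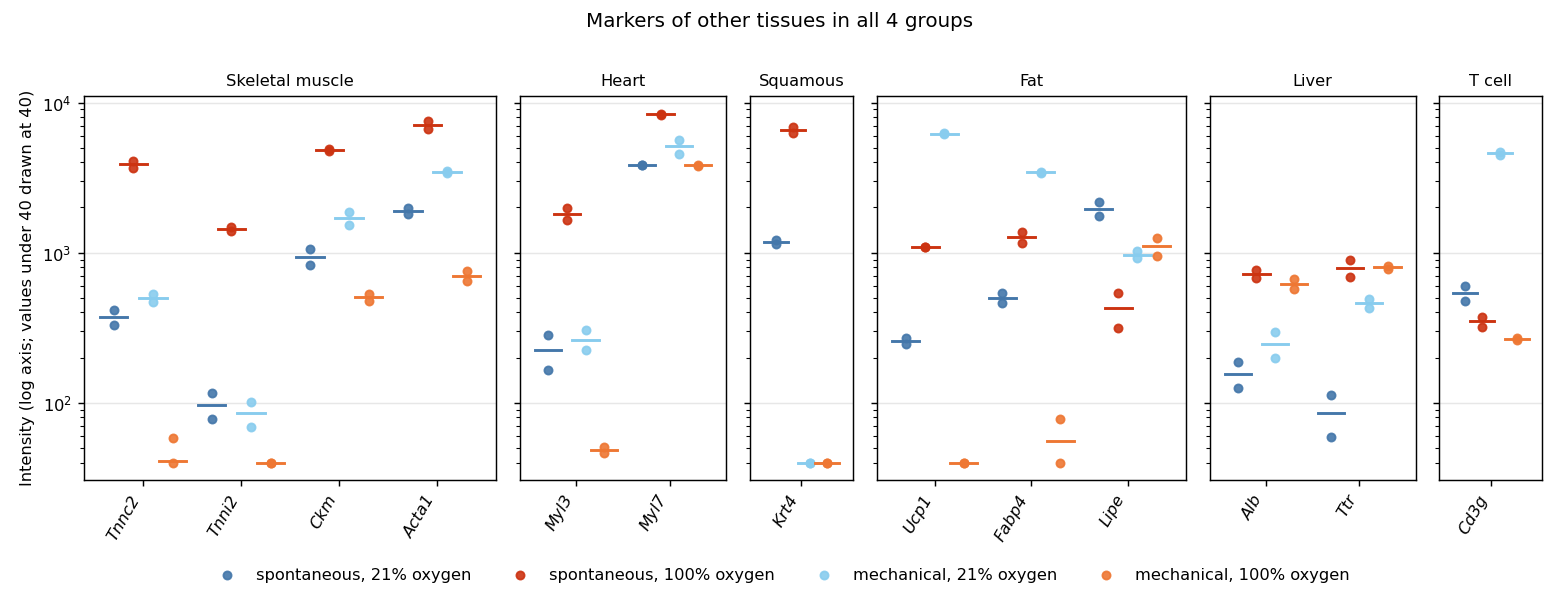
Intensity (log axis) of genes known from muscle, heart, squamous epithelium, fat, liver and T cells in all 4 groups of the series; points are samples, bars group means, and values under 40 are drawn at 40. The oxygen samples of spontaneous breathing (red) are the highest of the 4 groups for the muscle genes and Krt4, while Ucp1, Fabp4 and Cd3g peak in ventilated rats with 21% oxygen.

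Some of the largest changes lay outside the lists. Plscr3, a mitochondrial phospholipid scramblase, read 597 and 526 in air and was listed below 0 in oxygen, at -97 and -81 (log2 change with the offset -3.91 ± 0.20, adjusted p = 7.3e-05). Rup2 read 3 and 29 in air and 671 and 533 in oxygen (3.54 ± 0.27, adjusted p = 0.00026). H19, an imprinted noncoding RNA, read 404 and 391 in air and 1866 and 1941 in oxygen (2.15 ± 0.17, adjusted p = 0.00031). For Plscr3, Rup2 and, below, Slc27a1 1 group is at background, so the size of the change depends on the offset.

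Aebp1, a secreted protein that binds collagen, read 2154 and 1802 in air and 463 and 258 in oxygen (-2.38 ± 0.34, adjusted p = 0.0041), with a further probe set not called (-0.82 ± 0.27). Dlk1, a Notch-related factor of immature mesenchyme, read 947 and 971 against 233 and 207 (-1.94 ± 0.20, adjusted p = 0.00078), and Slc27a1, a fatty acid transporter, 508 and 365 against 59 and 72 (-2.16 ± 0.39, adjusted p = 0.0099). None of these had overlapping groups. Slc27a1 lost its call without oxygen a, oxygen b or air a (adjusted p up to 0.057), and with the lot line as a block so did Aebp1 (0.066) and Slc27a1 (0.09), the other 4 keeping theirs (0.0019 to 0.043).

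The oxygen effect was then set against the one in ventilated rats, which uses none of the same samples. There 1841 probe sets were called (35.1%), 1085 higher (20.7%) and 756 lower (14.4%), and the difference between the 2 oxygen effects was itself called for 1439 (27.4%). Of the 370 probe sets that rose in spontaneous breathing 104 (28.1%) also rose under ventilation and 80 (21.6%) fell. Of the 509 that fell 57 (11.2%) also fell, 192 (37.7%) rose, and the difference was called in 354 (69.5%).

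Of the 11 chaperones that rose in spontaneous breathing 9 also rose under ventilation, each by its brightest probe set. Stip1 rose by 1.11 in spontaneous breathing and 1.38 under ventilation, with a difference of -0.27 ± 0.15 (adjusted p = 0.21), and Hspd1 by 0.93 in both. A difference that misses the threshold does not show that the effects were equal. The other 2 were Hspe1, at 0.98 against -0.03 (difference adjusted p = 0.0098), and Dnaja1, at 0.93 against 0.27 (difference adjusted p = 0.081). A dimmer probe set of Dnaja1 did rise under ventilation (0.86 ± 0.13, adjusted p = 0.0023). It rose by 1.46 in spontaneous breathing (difference adjusted p = 0.041). The brightest probe set of Hsp90ab1, not called in spontaneous breathing, fell under ventilation (-1.24, adjusted p = 0.0026), as did that of Hspb1 (-1.17, adjusted p = 0.0034). Dimmer ones of Hsp90ab1 also fell there (-1.03 and -0.96), but the dimmest was not called (0.10, adjusted p = 0.68). The arrays of ventilated rats with 100% oxygen had 99th percentiles of 7361, 7111 and 8352, against 11152 and 11891 with 21%. The part of this in the ventilated readings of bright genes was not tested. Cyp1a1 and Cyp2e1 fell in both settings, by 2.01 and 1.51 and by 0.98 and 0.81 on the brightest probe set. A dimmer probe set of Cyp2e1 fell in spontaneous breathing (-0.94) and was not called under ventilation (-0.27, adjusted p = 0.12, difference adjusted p = 0.024). Another fell in both settings (-0.975 and -0.878). Hmox1 rose in both and more under ventilation (2.12, difference adjusted p = 0.042), as did Atf3, Egr1 and Fos. Il6 read 377 and 384 in ventilated rats with 21% oxygen and 432 and 425 with 100%, so it was already present there and showed no oxygen call (0.15, adjusted p = 0.57).

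Several genes of lung structure had opposite signs in the 2 settings. Lamb2 fell by 1.45 in spontaneous breathing and rose by 1.98 under ventilation, Scnn1a fell by 1.33 and rose by 1.20, Ace fell by 1.21 and rose by 0.99, and Myh11 fell by 1.86 and rose by 1.95. Others, such as Car4 (-1.60 and -0.89) and Sftpa1 (-0.40 and -0.34), had one sign in both. For Lamb2, Scnn1a, Ace and Myh11 the air samples and the ventilated 100% samples were high, and the oxygen samples and the ventilated 21% samples low, which is also how the lot line is distributed except for 1 array. That array, without the line, read 2535 for Lamb2, 4164 for Scnn1a, 4669 for Ace and 2108 for Myh11, and its partner from the same sample, with the line, read 2566, 4049, 4839 and 2142. The 2 arrays of that sample differed by at most 0.05 on the log2 scale for these 4 genes, but over the described genes the difference, without minus with the line, ran from -0.38 to 0.40 for the 53 that fell and from -0.93 to 0.95 for the 56 that rose. Larger differences were those of H19 (0.95), Fabp4 (-0.93), Tcap (-0.75), Hsph1 (0.52) and Car4 (-0.32).

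**Figure D4:**
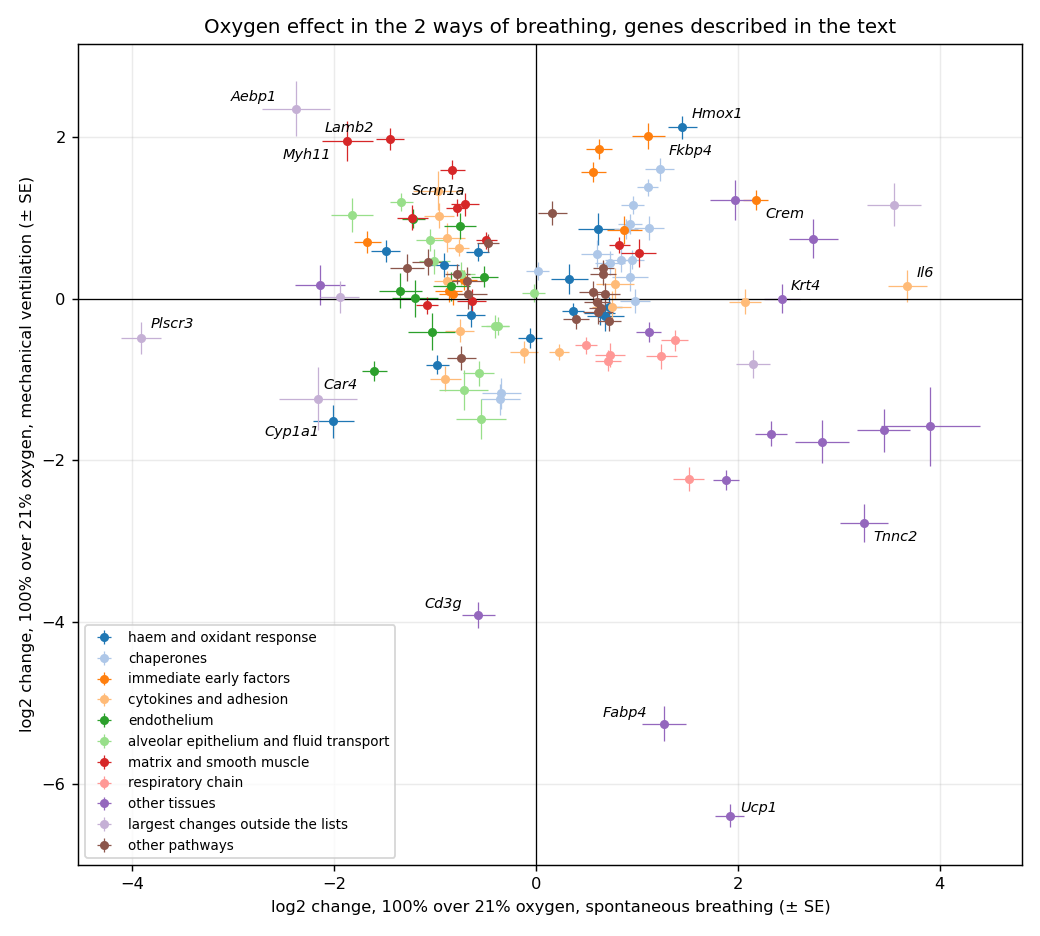
Log2 change with 100% over 21% oxygen in spontaneous breathing (horizontal) against the same under mechanical ventilation (vertical) for each gene described; points are fitted values, bars their standard errors and colours the gene groups. Hmox1, Fkbp4 and Crem lie in the upper right, Lamb2, Myh11, Aebp1 and Scnn1a in the upper left, Tnnc2, Ucp1 and Fabp4 in the lower right, and Car4 and Cyp1a1 in the lower left.

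Gene length and RNA quality were compared between the called sets. Genes that rose had a median span from start to end of 12.4 kb, genes that fell 28 kb, and those not called 21.2 kb, over at least 99% of each set with a known span. The ratio of 3′ to 5′ control probe sets for Gapdh was 1.202 and 1.29 in the air samples and 1.088 and 1.177 in the oxygen samples, and for beta-actin 1.051 and 1.057 against 0.982 and 1.009. These ratios were slightly lower in the oxygen samples. The part of either measure in the results was not tested.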

How the data were processed

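The deposited table holds 1 intensity per probe set and array, scaled by the authors to a common trimmed mean, as read from the values themselves; the software, scanner settings, RNA handling and array lots are not given in the sources used here. Negative values were set to 0 and log2(intensity + 40) was taken, 40 being 5% of the trimmed mean, so changes of dim genes are understated. Levels printed are the deposited intensities. The 2 arrays of the letter b sample ventilated with 100% oxygen were averaged, but entered singly in the fit with the lot line as a block.

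Using limma 3.58.1 (R 4.3.3), 1 mean per group was estimated across the 8 samples, with eBayes, a variance trend and 4 residual degrees of freedom. The lowest 40% of probe sets by mean were left out, and p-values were adjusted by Benjamini-Hochberg over the 5244 tested. The number of arrays limits the precision, and no interval from counts applies. The script was tested on simulated data. Of 8740 probe sets 7006 had a single gene symbol in the platform annotation, 308 several and 1426 none; 6985 symbols were matched to RefSeq (GRCr8). A gene is represented by its brightest probe set; 1555 genes were not tested. Named genes were the 15 largest called changes in each direction, up to 6 called and 3 bright uncalled members of each list, fixed eligible genes and the cell type markers. Junb, Il1b, Ccl20, Tgfb1, Dnaja1, Mmp2, Eln and Calcrl were chosen after their values were seen. The members and lists were chosen with earlier results of these data known. Promoter sequences are RefSeq's, GRCr8. The alternatives tried were another normalization, offset, filter, threshold, variance trend, probe set and array, the letter and the lot line as blocks, the 2 groups alone, and each sample left out.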

Additional observations from a re-analysis of the deposited data

Results flagged for a closer look

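Of the 124 genes described in the report and in the observations, 82 had an oxygen effect in spontaneous breathing that differed from the one under mechanical ventilation (interaction contrast in limma, Benjamini-Hochberg adjusted p under 0.05, the highest being 0.049). The genes were chosen largely for their call in spontaneous breathing, which is 1 term of this difference, so their share is set against no background; the difference was called in 55.4% of all probe sets that rose and 69.5% of those that fell. In 66 of these the 2 estimates had opposite signs and in 15 the same sign, and Krt4 (2.44), below 0 in all ventilated samples, had a ventilated effect of 0. The signs are those of the estimates, whether or not the ventilated effect was called, so an opposite sign alone is not a called reversal. Under ventilation Ccl2 changed by -0.04 ± 0.16 (adjusted p = 0.88) and Hspe1 by -0.03 ± 0.15 (adjusted p = 0.89). Acta2 changed by -0.08 ± 0.11 there (adjusted p = 0.58), while a dimmer probe set of it rose (0.815 ± 0.156, adjusted p = 0.0062). Each effect rests on 2 samples a group. The number after each gene is the difference in log2 oxygen effect, spontaneous minus ventilated.

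Among haem, iron and oxidant genes the effects had opposite signs for Prdx1 (0.52), Prdx3 (0.91), Xdh (-2.08), Sod3 (-1.15), Alas2 (0.83), Aco1 (-1.33) and Hp (0.81), and one sign for Hmox1 (-0.67). Among chaperones the effects had opposite signs for Hspe1 (1.02), and one sign for the brightest probe set of Hsp90ab1 (0.89). Its dimmer probe sets had no called difference (0.485, 0.357 and -0.261, adjusted p = 0.24, 0.41 and 0.45). Among immediate early factors the effects had opposite signs for Klf4 (-2.37), Klf10 (-0.88), Sgk1 (-0.96) and Hes1 (-0.94), and one sign for Crem (0.96), Atf3 (-0.9), Egr1 (-1.23) and Fos (-0.99). Among cytokine and adhesion genes the effects had opposite signs for Ccl2 (2.11), Cxcl6 (-1.64), Cx3cl1 (-1.99), Tgfb1 (-2.31), Icam1 (-1.4), Nfkbia (-1.1) and S100a8 (0.89), and one sign for Il6 (3.53). Among endothelial genes the effects had opposite signs for Ace (-2.2), Kdr (-1.44), Icam2 (-1.2), Pecam1 (-0.99), Acvrl1 (-1.65) and Edn1 (-0.78), and one sign for Car4 (-0.71). Among epithelial and ion transport genes the effects had opposite signs for Scnn1a (-2.53), Scnn1g (-2.85), Slc12a2 (-1.47), Slc4a2 (-1.05) and Muc1 (-1.78).

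Among matrix and smooth muscle genes the effects had opposite signs for Lamb2 (-3.42), Col5a1 (-2.22), Fn1 (-2.42), Lox (-1.91), Mmp2 (-1.87), Eln (-1.21) and Myh11 (-3.82), and one sign for Acta2 (-1.0). In the respiratory chain the effects had opposite signs for Cox7b (1.89), Cox5b (1.43), Uqcrfs1 (1.48), Ndufa5 (1.08), Cox6a2 (1.95) and Cox8b (3.74). Among markers of other tissues the effects had opposite signs for Tnnc2 (6.02), Tnni2 (5.08), Ckm (4.0), Acta1 (4.12), Tcap (5.48), Myl3 (4.61), Myl7 (1.53), Ucp1 (8.31), Fabp4 (6.53) and Lipe (-2.31), and one sign for Ttr (2.0) and Cd3g (3.34). Outside the lists the effects had opposite signs for H19 (2.96), Aebp1 (-4.73) and Dlk1 (-1.96), and one sign for Plscr3 (-3.43) and Rup2 (2.38). Among further pathway genes the effects had opposite signs for Slc2a1 (-0.9), Pgk1 (0.65), Pla2g2a (0.76), Gch1 (0.78), Psmb1 (1.01), Psma4 (0.64), Cpt1a (-1.66), Fasn (-1.53), F2r (-1.09) and F3 (-1.16), and one sign for Vegfa (-0.89) and Alox15 (0.63).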

How the results depend on the processing

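Counts of called probe sets (main 879, with 370 higher and 509 lower) moved past 1.5 times with no filter (540, 229 and 311), with only the 2 groups compared (577, 318 lower), with the lot line as a block (121, 68 and 53) and at an adjusted p under 0.10 (1357, 577 and 780). Leaving out 1 of the 8 samples gave 364 to 794 in all, 143 to 343 higher and 211 to 451 lower. Under ventilation the 1841 became 898 with the lot line as a block and 956 to 1899 without 1 sample, and the 1439 differences became 151 and 980 to 1318. Hspb1 went from -0.34 to 1.04 (adjusted p = 0.008) with its probe set of smallest p. The letters a and b did not pair the samples (deviations of same-lettered samples correlated at -0.128 to 0.0657 between groups); with the letter as a replicate block 293 rose and 374 fell (667 in all), and 101 of the 109 called genes described kept their call. Heat shock chaperones that rose numbered 7 to 9 without 1 sample, endothelial genes that fell 4 to 8, and respiratory chain genes that rose 4 to 10. No described gene changed sign under quantile or cyclic loess normalization, which moved the median of tested probe sets from -0.05 to -0.02 and 0.000777. The fit with only the second array of the averaged sample was chosen after seeing the data. The 2 samples per group, and readings near background such as Il6 in air, limit what can be resolved.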

Other observations

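Several further pathways had called members that are not part of the lists above. Over all tested genes 6.51% rose and 9.9% fell, and the counts in this section were not tested against these shares. Among 17 tested genes for prostanoid, leukotriene and nitric oxide synthesis 4 rose and 1 fell. Pla2g2a, a secreted phospholipase, read 1538 and 1724 in air and 2615 and 2528 in oxygen (0.65 ± 0.12, adjusted p = 0.011, limma). Alox15, a lipoxygenase, rose by 0.69 ± 0.14 and Alox5ap, which presents arachidonic acid to 5-lipoxygenase, by 0.57 ± 0.14. Gch1, which starts the cofactor of nitric oxide synthases, rose by 0.62 ± 0.15. Further probe sets of Alox15 (0.20 ± 0.15) and Gch1 (0.60 ± 0.27) were not called. Among 28 tested proteasome and ubiquitin genes 4 rose and 0 fell, among them Psmb1 (3474 and 4064 in air, 6217 and 6283 in oxygen, 0.73 ± 0.12, adjusted p = 0.0064) and Psma4 (0.60 ± 0.13). Interferon-induced genes fell in 4 of 19, with the peptide transporters Tap1 at -0.67 ± 0.19 and Tap2 at -0.74 ± 0.14.

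Lipid genes split, 5 up and 5 down of 27 tested. Cpt1a, which carries fatty acids into mitochondria, read 1310 and 1437 in air and 623 and 471 in oxygen (-1.28 ± 0.17, adjusted p = 0.0029), and Fasn, fatty acid synthase, 935 and 1003 against 436 and 446 (-1.07 ± 0.16, adjusted p = 0.0053), while Fdps of the cholesterol pathway rose by 0.67 ± 0.13, its other 2 probe sets not being called (0.54 and 0.28). In coagulation 2 of 13 fell, the thrombin receptor F2r (6019 and 6081 in air, 3917 and 3153 in oxygen, -0.78 ± 0.12) and tissue factor, F3 (-0.47 ± 0.11). Car2, a cytosolic carbonic anhydrase, rose from 2452 and 2311 to 3937 and 3680 (0.67 ± 0.10, adjusted p = 0.0063), opposite to Car4. None of 8 tested circadian clock genes was called. Glucocorticoid response genes fell in 4 of 12 tested, among them Sgk1 and Scnn1a. Of the called genes first given here, Psmb1, Cpt1a, Fasn, F2r and Car2 kept their calls in all 8 fits without 1 sample. The others lost theirs without at least 1 spontaneous sample (adjusted p up to 0.15), and none kept it with the lot line as a block (0.059 to 0.56).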
